A study of Rattus norvegicus with 4 samples.

Results

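The 46 genes described here encode collagens, proteoglycans, matrix glycoproteins and the enzymes and chaperones that assemble and crosslink them. They were chosen as a list of symbols, and a gene was measured where the accession of an array probe matched it. Of the 46 genes, 34 had a matched probe, of 8927 named genes on the array. Of these 34, 33 were well above background on at least 1 array, and the aggrecan gene Acan was not well above background on any. Col1a1, Col5a2, Col11a1, Col4a1, Col12a1, Col18a1, Vcan, Lama5, Nid2, Tnc, Postn and Lox were not analysed here, which leaves only Lamb2 of the basement membrane genes and no network-forming collagen.

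The cells came from Fisher 344 rats and formed 4 groups. OB Neu and HPC neu were obtained from stem cells of the olfactory bulb and of the hippocampus and were labelled neurons. OB NSC and HPC NSC were the neural stem cells that OB Neu and HPC neu came from. Below, "neurons" stands for the cells so labelled, whose identity was not tested. Each group was 1 array holding RNA pooled from 3 experiments, so no group has a replicate and no single comparison has a test. The labels used here give no agent or time for the differentiation, and name no genetic change or treatment of any group. Both neuron arrays lay on 1 slide and both stem cell arrays on the other, so slide and cell state cannot be told apart. Bulb and hippocampus were compared on the same slide each time.

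Fibrillar collagens are secreted as procollagen, in which prolines and lysines have been hydroxylated and the triple helix has been folded with the help of the chaperone Hsp47. Outside the cell their propeptides are removed and the fibrils are crosslinked by lysyl oxidases, while small leucine-rich proteoglycans bind the fibrils and regulate their thickness. Brain tissue itself holds little fibrillar collagen. Its matrix is built mainly of hyaluronan and of the lecticans, large proteoglycans that bind hyaluronan, and collagen-rich matrix lies around vessels and in the meninges.

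A level below is the log2 of a probe's processed signal minus the 75th percentile of its array, and a difference is the gap between 2 such levels of the same probe. Levels of different genes come from different probes and are not set against each other. The scanner's own error was 10.04% to 10.06% of a signal (median per array), and repeated spots of a probe differed by a median SD of 0.060 to 0.092 log2 units on the 4 arrays. Both are errors of spots, not of cultures. A difference of 1 log2 unit, 2-fold, was counted as a call. Where 1 side was not well above background it was set to the lowest signal that was, or to its own if higher, and the difference is given as "at least". Of the probes, 60.2% to 74.0% were well above background.

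Most matrix genes were far higher on the arrays labelled neurons than on the stem cell arrays, in cells of both sources. Among the 33 measured genes, 28 were higher and 3 lower in OB Neu than in OB NSC, with a median difference of 6.22. Of all 6945 genes compared there, 27.2% were higher and 20.2% lower, with a median of 0.09. In HPC neu against HPC NSC, 26 were higher and 2 lower, with a median of 5.16, against 21.9% higher and 26.9% lower among 6640 genes and a median of -0.32. Both sources showed 24 genes higher and 2 lower, against 18.5% and 16.9% of 6540 genes compared in both. Normexp background correction made the fold (not the log2 value) over 1.5 times smaller for 17 of the 33 genes in the bulb and 16 in the hippocampus. The decrease was largest for Col3a1 in both, and the fold became that much larger for 0 genes. Every fold and "at least" value below rests on the scanner's own background subtraction unless normexp is named. These shares describe the arrays, since the genes were chosen with earlier results of these data known. A gene not well above background in stem cells could also not be called lower, as held for 8 genes in the bulb and 10 in the hippocampus. In bulk RNA, fewer cells of a type and less RNA per cell cannot be told apart.

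**Figure D1:**
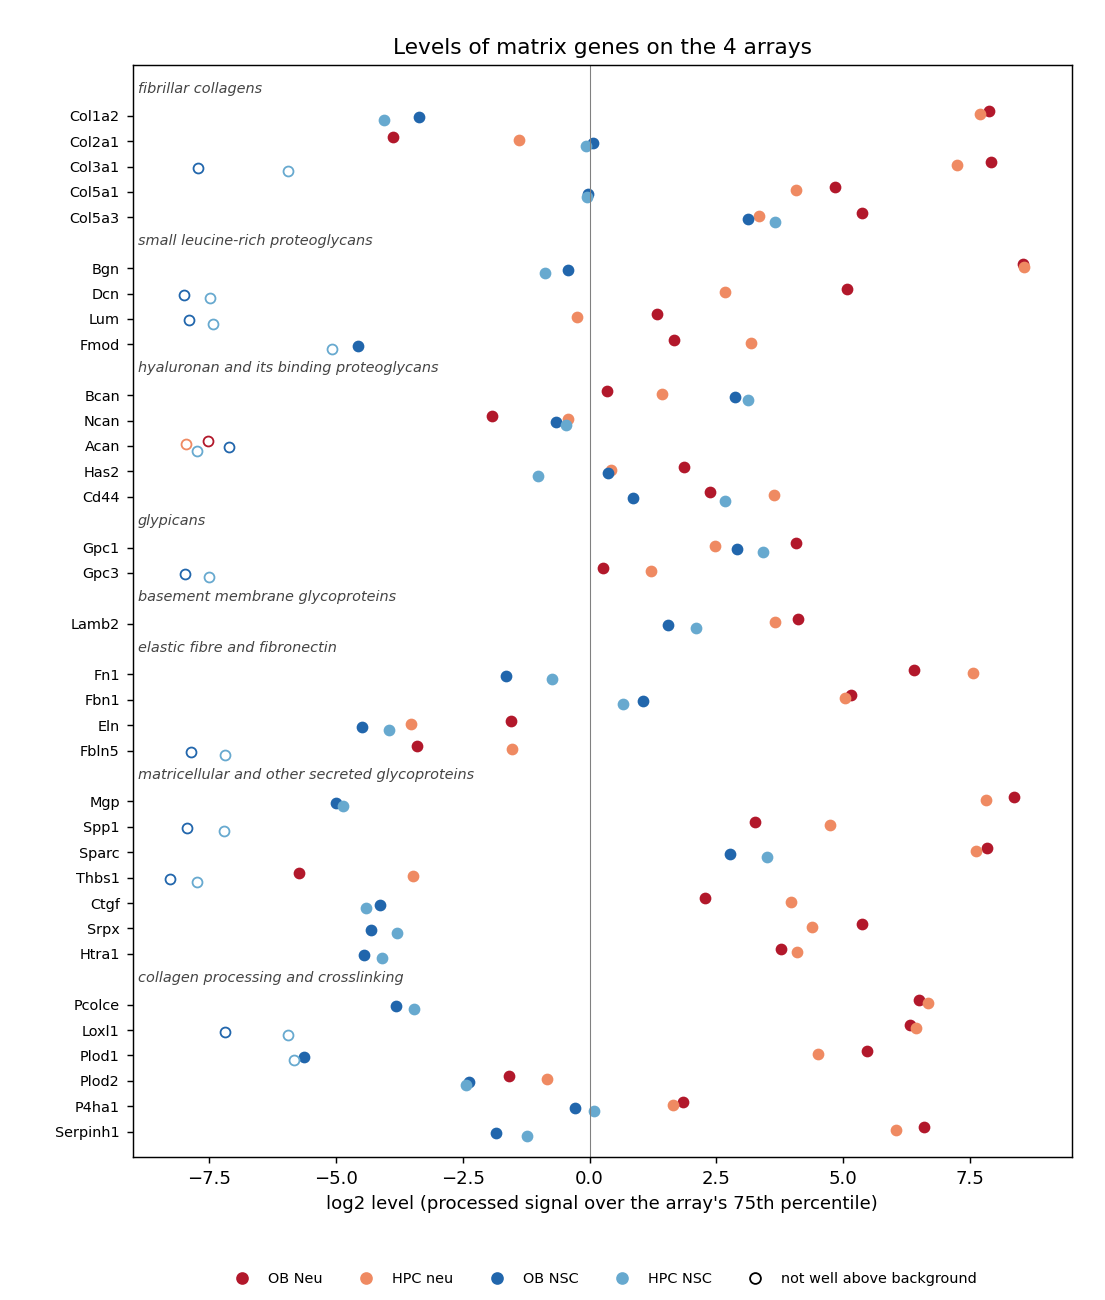
Log2 level of each measured gene (x axis, relative to the 75th percentile of the array) on the 4 arrays, grouped by role, with 1 point per array and open points where the gene was not well above background. Within a row, the OB Neu and HPC neu points of most genes lie to the right of the OB NSC and HPC NSC points, while Col2a1 and Bcan run the other way and Acan is open on every array.

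Promoter sequences are shown for genes that were much higher on both neuron arrays in 4 roles (collagen, small proteoglycan, secreted glycoprotein, crosslinking enzyme) and for Bcan, which was lower on both. They are the 250 bases before the annotated start in RefSeq, 5′ to 3′ on the gene's strand, with capitals where a searched motif matches on either strand. RefSeq promoters were found for 32 of the 46 genes.
Col1a2 (GRCr8 chr4:33518307-33518556, plus strand): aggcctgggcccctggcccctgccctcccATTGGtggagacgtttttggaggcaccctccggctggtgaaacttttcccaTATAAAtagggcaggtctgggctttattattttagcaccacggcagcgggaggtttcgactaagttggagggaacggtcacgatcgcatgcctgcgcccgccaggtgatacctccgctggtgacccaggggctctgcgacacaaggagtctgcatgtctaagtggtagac
Lum (GRCr8 chr7:34245456-34245705, plus strand): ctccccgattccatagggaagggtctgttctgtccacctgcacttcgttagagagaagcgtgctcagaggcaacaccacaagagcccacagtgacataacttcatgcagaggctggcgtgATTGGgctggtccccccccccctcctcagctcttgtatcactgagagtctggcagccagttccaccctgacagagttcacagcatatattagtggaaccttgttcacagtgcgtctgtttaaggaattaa
Ctgf (GRCr8 chr1:22624615-22624864, minus strand): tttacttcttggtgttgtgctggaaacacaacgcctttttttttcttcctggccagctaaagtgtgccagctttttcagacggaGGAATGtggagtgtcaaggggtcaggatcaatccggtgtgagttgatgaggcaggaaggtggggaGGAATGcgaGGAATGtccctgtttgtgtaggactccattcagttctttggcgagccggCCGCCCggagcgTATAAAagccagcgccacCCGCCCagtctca
Spp1 (GRCr8 chr14:5619805-5620054, minus strand): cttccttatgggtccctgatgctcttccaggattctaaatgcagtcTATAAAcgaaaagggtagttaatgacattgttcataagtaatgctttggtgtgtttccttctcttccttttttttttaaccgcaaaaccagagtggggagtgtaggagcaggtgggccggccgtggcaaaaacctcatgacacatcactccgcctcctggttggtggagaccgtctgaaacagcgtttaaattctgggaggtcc
Loxl1 (GRCr8 chr8:67612225-67612474, minus strand): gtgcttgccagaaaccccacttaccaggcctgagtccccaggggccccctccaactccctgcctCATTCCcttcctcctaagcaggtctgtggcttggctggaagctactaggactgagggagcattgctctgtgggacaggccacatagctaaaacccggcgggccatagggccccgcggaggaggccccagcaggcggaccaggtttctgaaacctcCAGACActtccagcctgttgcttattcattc
Bcan (GRCr8 chr2:175765315-175765564, minus strand): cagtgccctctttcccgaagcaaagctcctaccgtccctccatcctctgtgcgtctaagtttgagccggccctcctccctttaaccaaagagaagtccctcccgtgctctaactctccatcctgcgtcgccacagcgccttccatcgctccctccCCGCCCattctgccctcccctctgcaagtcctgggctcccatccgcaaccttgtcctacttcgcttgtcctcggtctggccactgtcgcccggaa
The 7 motifs searched were the TATA box TATAAA, the box CCAAT bound by NF-Y, the Sp factor motif GGGCGG, the TEAD factor motif GGAATG, the AP-1 motif TGANTCA, the hypoxia-inducible factor core ACGTG and the Smad motif CAGACA. Each was searched on both strands. Different motifs overlapped at 2 places. GGGCGG lay in 21 of the 32 promoters (65.6%), against 38.9% of 21851 promoters of protein-coding genes. CCAAT lay in 9 (34.99% of protein-coding promoters), TATAAA in 6 (12.1%), GGAATG in 5 (10.997%), CAGACA in 5 (15.9%), ACGTG in 2 (17.2%) and TGANTCA in 0 (5.69%). Ctgf held GGAATG at 166, 101 and 92 bases before its start. Loxl1 held it at 186 bases, Thbs1 at 47, Sparc at 33 and Acan, which was not well above background on any array, at 11. These are matches of letters, not measured binding.

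The fibrillar collagen genes did not move as 1 group. Col3a1, which encodes the single chain of type III collagen, stood at 7.90 in OB Neu and 7.24 in HPC neu, and was not well above background at -7.72 in OB NSC and -5.93 in HPC NSC. It was therefore at least 13.87 log2 units higher in OB Neu and at least 12.65 higher in HPC neu than in the stem cells of the same source. These bounds depend on the background correction, and with normexp the values were 11.33 and 9.93. Col1a2, a chain of type I collagen, was 11.23 and 11.75 higher in bulb and hippocampal neurons, and Col5a1, a chain of type V collagen that sets fibril diameter, was 4.88 and 4.12 higher.

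Col2a1, the collagen of cartilage, ran the other way. Its level was -3.86 in OB Neu and -1.38 in HPC neu, against 0.07 in OB NSC and -0.07 in HPC NSC. The differences were -3.94 in the bulb and -1.32 in the hippocampus, and both neuron arrays lay below both stem cell arrays. Its second probe was well above background on the OB Neu array only, so it gives no measured difference. The hippocampal call was lost when the probes were averaged and with spike-in scaling. Col5a3, another type V chain, stood at 5.37 in OB Neu and 3.33 in HPC neu, against 3.12 in OB NSC and 3.65 in HPC NSC. The OB Neu array stood above the other 3, which lay within 0.53 log2 units of each other.

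All 4 small leucine-rich proteoglycan genes were higher on both neuron arrays. Dcn, which encodes decorin, stood at 5.07 in OB Neu and 2.66 in HPC neu, against -7.98 in OB NSC and -7.48 in HPC NSC. Lum (lumican) stood at 1.32 and -0.25 in OB Neu and HPC neu, against -7.88 and -7.42 in OB NSC and HPC NSC. Neither gene was well above background in stem cells, so Dcn was higher by at least 11.03 in the bulb and 8.07 in the hippocampus, and Lum by at least 7.29 and 5.16. Fmod (fibromodulin) stood at 1.67 in OB Neu and 3.17 in HPC neu, against -4.55 in OB NSC and, not well above background, -5.07 in HPC NSC. Its order between the neuron arrays was the opposite of that of Dcn and Lum. Bgn (biglycan) was well above background on all 4 arrays and was higher by 8.96 in bulb and 9.44 in hippocampal neurons.

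The 4 measured genes of the hyaluronan matrix gave mixed differences, with medians of 0.11 in the bulb and 0.50 in the hippocampus. Bcan, the brain lectican brevican, stood at 0.34 in OB Neu and 1.42 in HPC neu, against 2.86 in OB NSC and 3.13 in HPC NSC. Its signal was 5.77 times lower in OB Neu and 3.26 times lower in HPC neu than in the stem cells, and its second probe gave log2 differences of -5.73 and -2.26. Ncan, which encodes the lectican neurocan, stood at -1.93 in OB Neu and -0.43 in HPC neu, against -0.66 in OB NSC and -0.47 in HPC NSC. It was thus lower in OB Neu alone, and that call was lost with normexp background correction. Has2, a hyaluronan synthase, stood at 1.86 in OB Neu and 0.42 in HPC neu, against 0.37 in OB NSC and -1.01 in HPC NSC. Cd44, a hyaluronan receptor, stood at 2.38 in OB Neu and 3.63 in HPC neu, against 0.86 in OB NSC and 2.67 in HPC NSC. Has2 differed by 1.49 and 1.43 between neurons and stem cells of bulb and hippocampus, and Cd44 by 1.52 and 0.96. With median scaling Has2 in both sources and Cd44 in the bulb lay under 2-fold, as did both genes in the bulb with spike-in scaling.

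The 2 glypican genes, whose products carry heparan sulfate at the cell surface, behaved differently. Gpc3 stood at 0.26 in OB Neu and 1.21 in HPC neu, and was not well above background at -7.97 in OB NSC and -7.50 in HPC NSC. In the bulb this is at least 6.23 and in the hippocampus at least 6.63. Gpc1 stood at 4.06 in OB Neu and 2.47 in HPC neu, against 2.90 in OB NSC and 3.42 in HPC NSC. It was higher by 1.16 in bulb neurons and differed by -0.95 in hippocampal neurons, and its second probe gave 1.14 and -1.17. The bulb call was lost with median and with spike-in scaling. Lamb2, a laminin chain of basement membranes, stood at 4.10 in OB Neu and 3.65 in HPC neu, against 1.55 in OB NSC and 2.10 in HPC NSC. Both neuron arrays were above both stem cell arrays, by 2.55 in the bulb and 1.55 in the hippocampus.

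Fn1, the fibronectin gene, stood at 6.40 in OB Neu and 7.56 in HPC neu, against -1.64 in OB NSC and -0.75 in HPC NSC. This is 263.1-fold higher in bulb and 317.6-fold higher in hippocampal neurons. Its second probe gave log2 differences of 8.04 and 9.34. Fbn1, which encodes fibrillin-1 of the microfibrils, was 4.09 and 4.39 higher. The genes that complete the elastic fibre moved less evenly. Eln (elastin) stood at -1.55 in OB Neu and -3.52 in HPC neu, against -4.49 in OB NSC and -3.94 in HPC NSC. Its difference of 2.94 in the bulb stood beside 0.42 in the hippocampus. Fbln5, a fibulin needed for elastic fibre assembly, stood at -3.40 in OB Neu and -1.52 in HPC neu, and was not well above background in stem cells (-7.84 in OB NSC and -7.19 in HPC NSC), which gives at least 2.56 and 3.89. With normexp correction the bulb value lay under 2-fold. Between the neuron arrays its order was the reverse of that of Eln.

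The 7 measured genes for secreted glycoproteins had median differences of 8.21 and 8.18. Mgp, which inhibits calcification, stood at 8.36 in OB Neu and 7.80 in HPC neu, against -4.99 in OB NSC and -4.85 in HPC NSC. All 4 signals were well above background, so the differences of 13.35 and 12.65 are not bounds. With normexp correction they were 11.49 and 10.29. Spp1 (osteopontin) stood at 3.25 in OB Neu and 4.74 in HPC neu, and was not well above background at -7.92 in OB NSC and -7.21 in HPC NSC, so it was at least 9.22 and 10.15 higher. Ctgf, a matricellular gene and known target of YAP and TEAD whose promoter is shown above, stood at 2.27 in OB Neu and 3.97 in HPC neu, against -4.12 in OB NSC and -4.40 in HPC NSC. It was 84.3-fold higher in bulb and 331.3-fold higher in hippocampal neurons, and 33.3-fold and 88.9-fold higher with normexp correction. Sparc, a collagen-binding glycoprotein, was higher by 5.06 and 4.11, Srpx by 9.68 and 8.17, and the secreted protease gene Htra1 by 8.21 and 8.18. Thbs1 (thrombospondin 1) stood at -5.73 in OB Neu and -3.48 in HPC neu, and was not well above background at -8.26 in OB NSC and -7.73 in HPC NSC, which gives at least 0.24 and 1.93. The hippocampal call was lost with normexp correction.

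The 6 measured genes for collagen processing and crosslinking had median differences of 9.35 in the bulb and 8.59 in the hippocampus. Loxl1, a lysyl oxidase of elastic and collagen fibres, stood at 6.32 in OB Neu and 6.43 in HPC neu, and was not well above background at -7.19 in OB NSC and -5.93 in HPC NSC. These bounds put it at least 12.29 and 11.84 higher. Pcolce, which enhances removal of the procollagen C-propeptide, was higher by 10.29 and 10.12. Plod1, a lysyl hydroxylase, was higher by 11.09 in the bulb and by at least 9.91 in the hippocampus. Serpinh1, which encodes Hsp47, was higher by 8.42 and 7.26. P4ha1, a catalytic subunit of prolyl 4-hydroxylase, differed by 2.12 and 1.55, and Plod2, the lysyl hydroxylase that acts on collagen telopeptides, by 0.79 and 1.59. Among 9 other collagen processing genes with a matched probe, 3 were higher in the bulb, 2 in the hippocampus and 0 lower. The transglutaminase gene Tgm2 (at least 9.83 and 8.25) and the prolyl 3-hydroxylase gene P3h1 (2.36 and 1.68) were higher in both sources. P4hb, the partner subunit of P4ha1, differed by 0.51 and 0.11, the collagen chaperone gene Fkbp10 by 0.25 and 0.14, and Plod3 by -0.15 and -0.42.

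**Figure D2:**
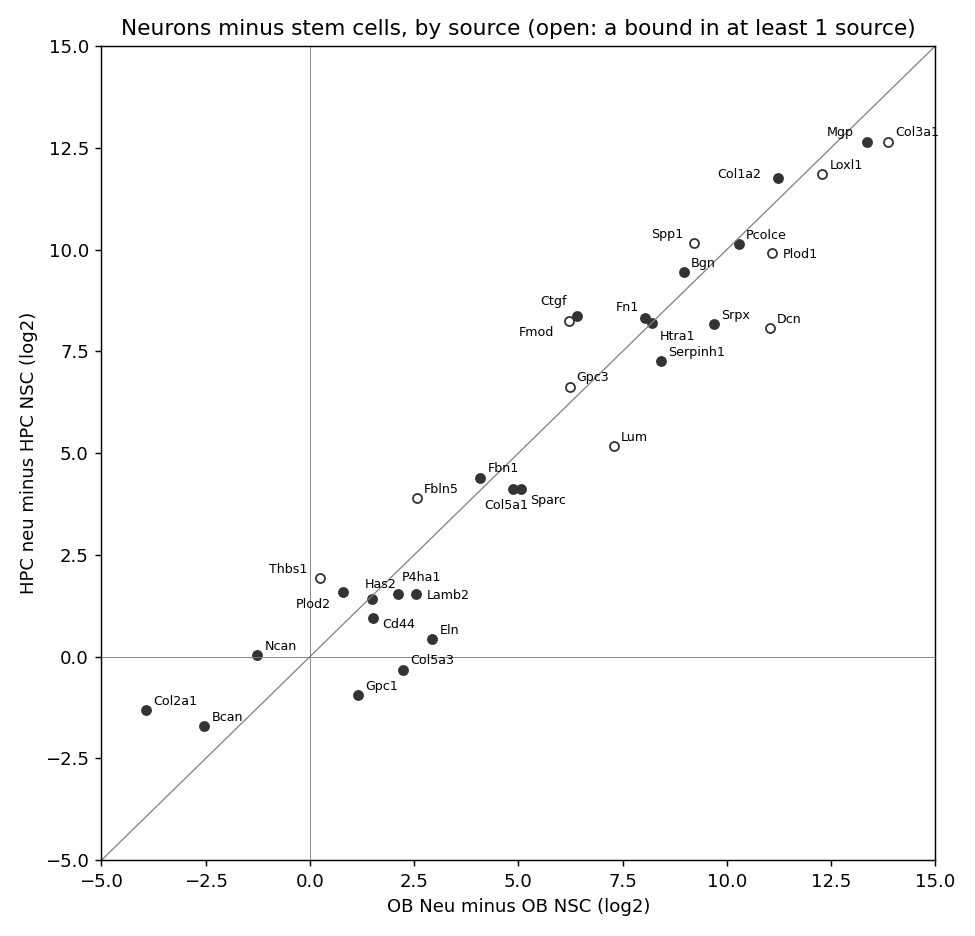
Difference between neurons and stem cells for each measured gene, in the bulb (x axis, log2) and in the hippocampus (y axis, log2); the line marks equal differences and open points are bounds in at least 1 source. Mgp, Col3a1, Loxl1 and Col1a2 lie above 11 on both axes, Col2a1 and Bcan lie below 0 on both, and Col5a3 and Gpc1 lie above 0 on the x axis and below 0 on the y axis.

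Cell state was tested only by an additive fit of state and source over the 4 arrays (limma, Benjamini-Hochberg over 7112 genes), which treats the sources as repeats of each other and leaves 1 residual degree of freedom. Signals not well above background entered the fit at the values set for bounds, as held for 10 of the 33 genes in HPC NSC and 8 in OB NSC. Those 8 (Col3a1, Dcn, Lum, Gpc3, Fbln5, Spp1, Thbs1 and Loxl1) were well above background on the neuron arrays only. They entered the fit through these arrays alone, so a rise in them is no independent support. The genes were also chosen with earlier results known, so the counts that follow describe the arrays. Of 33 matrix genes tested, 27 rose and 2 fell, against 20.9% and 21.7% of all genes. The 2 that fell were Bcan and Col2a1. The 4 that did not pass were Gpc1, Ncan, Plod2 and Thbs1. The fit took its spread entirely from genes of similar level, so its p-values are too small for a gene whose sources differ. Without that trend it again gave 27 and 2, with Col5a3 in place of Plod2 among the 4 that did not pass. Under at least 1 alternative the state call was lost for Col2a1, Col5a3, Bcan, Has2, Cd44, Lamb2, Eln and P4ha1. The calls also hold any difference between the slides.

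Other matrix genes, from lists of related genes, were compared in the same way. Of 20 other glycoprotein and basement membrane genes with a matched probe, 15 were higher and 3 lower in OB Neu than in OB NSC (20 compared, median 3.34), and 13 were higher and 3 lower in the hippocampus (17 compared, median 3.12). Sparcl1 (10.47 and at least 9.71), the fibulin family gene Efemp1 (at least 9.15 and 7.41), Ccn4 (at least 6.81 and 6.67) and the latent TGF-beta binding protein gene Ltbp1 (7.33 and 6.54) led them. Tnr, which encodes the neural glycoprotein tenascin-R, was lower (-2.07 and -1.21). Of 20 other proteoglycan genes, 12 of 18 compared were higher and 1 lower in the bulb, and 11 of 19 were higher and 3 lower in the hippocampus. The small leucine-rich proteoglycan gene Aspn (at least 6.24 and 6.46) and the syndecan genes Sdc2 (at least 6.59 and 5.96) and Sdc4 (5.67 and 6.06) were among them. The receptor-type proteoglycan gene Ptprz1, made by glial progenitors, was lower (-1.64 and -1.27).

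Of 30 other collagen genes, 2 were matched to a probe by accession, and the other 28 were not analysed here. Col23a1 was higher by 3.06 and 1.43, and Col4a4 was lower (bounds of -1.815 and -1.22). Of 7 matrix receptor genes with a matched probe, 4 of 6 compared were higher in the bulb and 5 of 6 in the hippocampus, with 0 lower. They were led by the integrin genes Itgb4 (4.17 and 4.28) and Itga1 (3.61 and 4.44).

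Markers of other cells differed between the same arrays. Of 10 pericyte, fibroblast and smooth muscle markers that are not in the matrix list, 10 were higher in the bulb and 9 in the hippocampus. Their mean log2 level was 0.66 in OB Neu and 1.23 in HPC neu, against -4.73 in OB NSC and -4.26 in HPC NSC. Pdgfrb, a receptor gene of this list, stood at 2.44 in OB Neu and 3.27 in HPC neu. In OB NSC (-6.46) and HPC NSC (-7.32) its signal did not clear background. The list does not tell these 3 cell types apart. Of 9 astrocyte markers, 8 were higher and 1 lower in the bulb, and 7 higher and 1 lower in the hippocampus. Endothelial markers (3 of 4 higher in each source, with Pecam1 not well above background anywhere) and microglial markers (5 of 7 and 4 of 7, with Cx3cr1 and Itgam not well above background anywhere) were higher as well. Of 11 neuron markers, 3 were higher and 7 lower in OB Neu than in OB NSC, and 2 were higher and 4 lower in HPC neu than in HPC NSC. Stmn2 (at least 5.01 and 5.83) and Snap25 (3.08 and 3.97) were higher in both sources. Mapt (-6.44 and -3.62), Tubb3 (-3.08 and -2.73), Elavl3 (-6.35 and -2.47) and Syt1 (bounds of -4.46 and -2.65) were lower in both, so the neuron markers did not share a direction. Of 7 neural stem cell markers 2 were higher and 4 lower in each source. Of oligodendrocyte markers 2 were higher and 3 lower of 7 in the bulb, and 0 higher and 2 lower of 6 in the hippocampus. Of 7 olfactory ensheathing and Schwann cell markers 6 were higher and 0 lower in the bulb, and 3 higher and 2 lower in the hippocampus. The part of any of these cell types in the matrix differences was not tested.

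**Figure D3:**
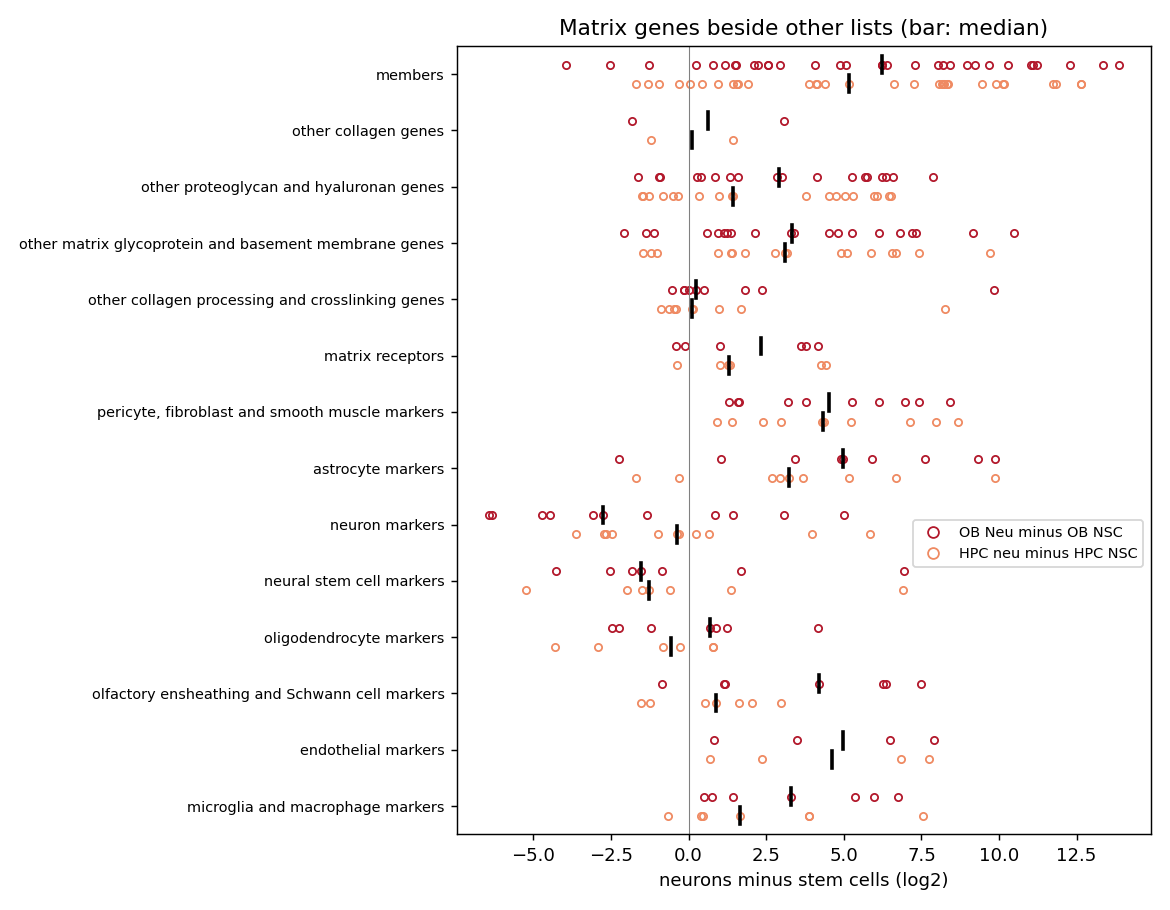
Difference between neurons and stem cells (x axis, log2) for the matrix genes and for each other list, with 1 circle per gene and source and a bar at the median. The matrix genes reach from -3.94 to 13.87 in the bulb, the stromal markers lie above 0 in both sources, and most neuron markers lie below 0 in the bulb.

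Bulb and hippocampus were also compared within each state. Of 24 genes compared in stem cells, Has2 was higher in OB NSC than in HPC NSC (1.38) and Cd44 lower (-1.81), and the other 22 differed by less than 2-fold. The median was -0.31, against -0.44 for all 5953 genes, of which 4.22% were higher and 7.07% lower. In neurons 33 genes were compared, 6 were higher and 10 lower in OB Neu than in HPC neu, and the median was 0.10, against 7.87% and 8.22% of 6812 genes and a median of -0.02. The stem cell and neuron comparisons share no array with each other, but each shares its arrays with the comparisons of state above. Whether the neuron difference is wider than that in stem cells was not tested.

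The balance of these calls moved with the scaling. The share of all genes called was not computed under the alternatives, so the counts here describe the scaling and not the matrix genes. With spike-in scaling 7 genes were higher and 0 lower in OB NSC, and 3 were higher and 12 lower in OB Neu. Without a filter on dim probes 1 was higher and 3 lower in OB NSC. Spike-in scaling put the median of all genes at 0.43 in stem cells and -0.65 in neurons, and at -1.0041 and 0.12 for the change of state in bulb and hippocampus. Median scaling put it at -0.46, -0.12, -0.48 and -0.81 in the same order.

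The genes higher in OB Neu than in HPC neu were Dcn (2.41), Col5a3 (2.03), Eln (1.96), Gpc1 (1.59), Lum (1.57) and Has2 (1.44). With spike-in scaling Gpc1, Lum and Has2 lay under 2-fold. The genes lower in OB Neu were Col2a1 (-2.48), Thbs1 (-2.25), Fbln5 (-1.88), Ctgf (-1.70), Fmod (-1.51), Spp1 (-1.49), Ncan (-1.49), Cd44 (-1.25), Fn1 (-1.16) and Bcan (-1.09). Of these, Thbs1 lay under 2-fold with normexp correction, Fn1 with quantile normalization and Cd44 with the mean over probes. Decorin and lumican were thus higher on the bulb array and fibromodulin on the hippocampal one, while biglycan differed by -0.02. Of the genes for collagen processing and crosslinking, none differed by 2-fold between the neuron arrays, with Plod1 (0.97) and Plod2 (-0.75) at the ends and Loxl1 at -0.11. Col1a2 gave 0.17 with its brighter probe and 0.74 with the other, Fbn1 0.10 and -0.63, and Col5a1 0.77 and 1.12. Bcan gave -1.09 and -3.68, with its dimmer probe at only -6.29 in OB Neu, and Fn1 gave -1.16 and -1.81. The probes of these genes disagreed by more than the scanner's error of a difference, about 0.20 log2 units for the brighter probes. Markers moved too between the neuron arrays. Of 10 stromal markers 0 were higher and 4 lower in OB Neu. Of 7 olfactory ensheathing and Schwann cell markers 4 were higher and 1 lower, led by Ngfr (4.95). Of 10 neuron markers 0 were higher and 5 lower, of 9 astrocyte markers 3 and 2, and of 7 oligodendrocyte markers 2 and 1. Of 7 neural stem cell markers 2 were higher and 0 lower, of 7 microglial markers 2 and 1, and of 4 endothelial markers 0 and 1. Of all 6812 genes 7.87% were higher and 8.22% lower. The part of these cell types in the matrix differences was not tested.

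**Figure D4:**
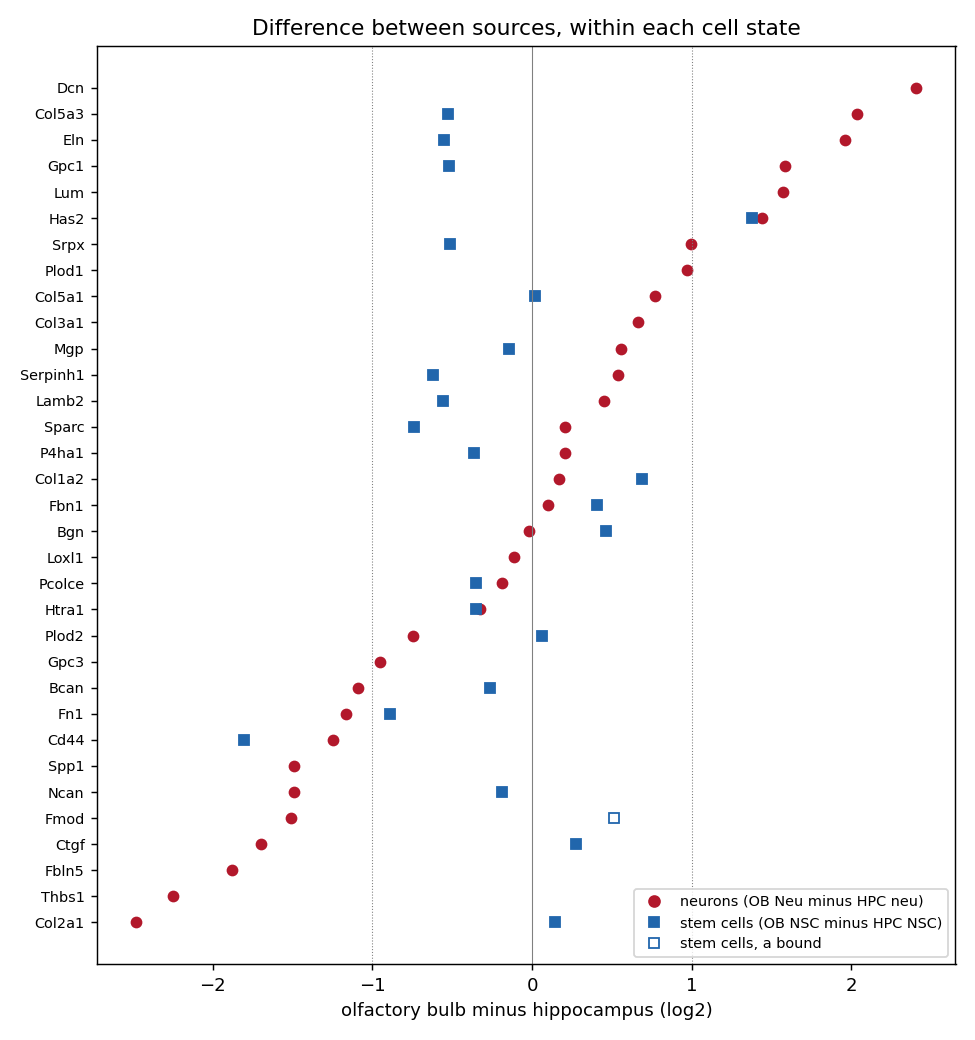
Difference of olfactory bulb minus hippocampus (x axis, log2) for each measured gene, in neurons (circles) and in stem cells (squares, open where a bound), sorted by the value in neurons, with dotted lines at 2-fold. Dcn (2.41) and Col2a1 (-2.48) lie at the ends for neurons, and the only squares beyond the dotted lines are Has2 and Cd44.

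Has2 and Cd44 kept their direction in both states. Has2 differed by 1.44 in neurons and 1.38 in stem cells, and Cd44 by -1.25 and -1.81. Of all 5807 genes compared in both states, 0.379% were higher and 1.03% lower in both. With spike-in scaling Has2 in neurons and Cd44 in stem cells lay under 2-fold. The additive fit called both for source (limma adjusted p = 0.0497 and 0.00255), against 0.436% of genes higher and 1.74% lower. Over the 9 alternatives the adjusted p of Has2 ran from 0.0278 to 1.0 and that of Cd44 from 0.00255 to 1.0, each under 0.05 in 4, of which 1 is the authors' table with the same values. Without the trend limma called 0 of the 33 genes for source, while 7 had an unadjusted p under 0.05, as had 570 of all 7112 genes.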

How the data were processed

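RNA of 4 rat cell groups was labelled with Cy3 and hybridised to 1 Agilent array each. The authors deposited spot intensity values made, per the submitters' processing notes, with Agilent Feature Extraction 10.5.1.1. Per the file headers they were background-subtracted and spatially detrended, and probes were designed on rn4. The authors' deposited table for the series held the same intensity values (largest difference 0). Here log2 of the processed signal minus each array's 75th percentile was used. Of 41012 non-control probes, 254 with an outlier spot were left out, and 10783 of 40758 probes matched 1 RefSeq gene by accession (GRCr8, names and promoters only; Ctgf is listed there as Ccn2). The brightest probe was taken for the 12 matrix genes with 2 probes. No spot was saturated (0). Counts use a threshold of 1 log2 unit. The additive fit used limma 3.58.1 in R 4.3.3 with a mean-variance trend. On simulated data of 7112 genes it recovered 94% of differences of 2 log2 units. The simulation gave all genes the same spread and no difference between sources or slides. The 94% is therefore not the power of the fit on these arrays. The members and lists were chosen with earlier results of these data known. Per-array levels were to be given for members with the largest state difference of their role or a source difference of 1 log2 unit, and other members by range. Levels of members outside that rule were added with values seen. Up to 4 genes per direction were to be named from each related list and up to 3 from each marker list. List genes beyond these were chosen after their values were seen. They were P4hb, Fkbp10, Plod3, Pecam1, Cx3cr1, Itgam, Ngfr and the neuron markers past the first 3. Python 3.11.15 drew the figures. Alternatives were normexp correction (offset 50), quantile normalization, median and spike-in scaling, 2 other filters on dim probes, the mean over probes and the authors' table.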

Additional observations from a re-analysis of the deposited data

Results flagged for a closer look

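With 1 array per group, no sample could be set against others of its group. Matrix genes were picked out where the same contrast ran in opposite directions in 2 groups, each beyond the scanner's error of the difference; none of these differences was tested. For neurons minus stem cells these were Col5a3 (2.24 in the bulb and -0.32 in the hippocampus, 2.56 apart) and Gpc1 (1.16 and -0.95, 2.11 apart). The hippocampal value of Col5a3 was positive with quantile normalization (0.19) and with spike-in scaling (0.12), so the opposite direction was lost there.

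For bulb minus hippocampus, the negative stem cell values were small, where the median of all genes was -0.44, and all 8 of them were positive with spike-in scaling (0.12 to 0.50). Col5a3, Gpc1, Eln and Srpx then ran the same way in both states, and Lamb2, Sparc, P4ha1 and Serpinh1 ran opposite ways with the signs turned. Under the scaling used here Col5a3 was at 2.03 in neurons and -0.53 in stem cells, and Gpc1 at 1.59 and -0.52, with the same gaps of 2.56 and 2.11, since the 4 arrays are the same. Eln was at 1.96 in neurons and -0.55 in stem cells, 2.51 apart. Srpx was at 1.00 and -0.51, 1.51 apart, Serpinh1 at 0.54 and -0.62, 1.16 apart, and Lamb2 at 0.45 and -0.56, 1.00 apart. Sparc was at 0.21 and -0.74, 0.95 apart, and P4ha1 at 0.21 and -0.36, 0.57 apart. Fmod ran the other way, at -1.51 in neurons and 0.51 in stem cells, a gap (neurons minus stem cells) of -2.02. The stem cell value is a bound, since Fmod was not well above background in HPC NSC. The scanner's error of that stem cell difference was 0.41. With normexp correction the stem cell comparison gave no value, so the opposite direction could not be read there.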

How the results depend on the processing

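Each matrix gene's difference was recomputed under 8 alternatives. All 77 calls of 2-fold kept their direction under the 6 alternatives that gave a value for each and used other values. The filter for genes well above background on all 4 arrays kept 52 calls with unchanged values, so their agreement is no check. Calls lay under 2-fold for 8 values with spike-in scaling, 4 with median scaling, 4 with normexp, 2 with the mean over probes and 1 with quantile normalization. The authors' table holds the same values as the scanner files, so its agreement is no check. The filter for genes well above background on all 4 arrays left 23 genes and removed those dim in stem cells. Of the 23, 16 were higher in HPC neu than in HPC NSC, against 26 of 33 before. In OB Neu against OB NSC 19 of 23 were higher, against 28 of 33. In OB Neu against HPC neu 6 of 23 were lower, against 10 of 33. The share of all genes called was not computed under this filter. With spike-in scaling, 1 was lower in HPC neu than in HPC NSC, 7 were higher and 0 lower in OB NSC than in HPC NSC, and 3 were higher in OB Neu than in HPC neu. With no filter on dim probes, 3 were lower in OB NSC than in HPC NSC. The limma fit for source called 0 genes with quantile normalization, median scaling and spike-in scaling, 1 with no filter and with the mean over probes, and 0 without the trend, an alternative chosen after seeing the data; the cause was not tested. No paired analysis was possible because the labels give no replicate numbers to pair and each group was 1 array, so none could be left out; the additive fit already holds source as a block for state. The number of arrays limits every value, and signals not well above background give bounds only.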
